A study of Homo sapiens with 2 samples.

Results

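Integrins are membrane receptors built from 1 alpha and 1 beta subunit that bind matrix proteins such as fibronectin, collagen and laminin. Inside the cell their beta tails bind talin and kindlin, which couple them to actin through vinculin, parvin and other linkers. The plaque that forms there, the focal adhesion, also carries kinases such as FAK and SRC and scaffold proteins such as paxillin and zyxin, which pass adhesion signals on to the cytoskeleton and to growth pathways.

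The genes described here are 35 that encode integrin subunits and components of this plaque. They form a list of symbols chosen by function, with no threshold on their values, and each was followed through every probe set that the platform annotation pairs with that gene and no other. A probe set is a group of oligonucleotides on an Affymetrix array whose signals are combined into 1 intensity for a transcript. Of the 35 genes, 34 had such a probe set, 112 probe sets in all, out of 19775 genes and 41091 single-gene probe sets on the array. The expression of CRK, the adaptor downstream of paxillin and p130Cas, was not analysed here.

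Both samples derive from C33-A, an established human cervical carcinoma line that grows attached. The line called CA9 below was stably transfected with the full-length cDNA of human CA9 in the vector pcDNA3.0, and the line called mock below with the empty vector. CA9 encodes carbonic anhydrase IX, a cell-surface enzyme that converts carbon dioxide to bicarbonate and protons and is induced in hypoxic tumours. Both lines grew in RPMI with serum at 10% and antibiotics, and RNA was taken on day 4 after seeding. There was 1 array for each line. Whether a line is 1 clone or a pool of transfectants is not stated in the labels, so differences between the lines that have nothing to do with CA9 cannot be told apart from those that do. No probe set used here is paired with CA9 itself, so its expression was not analysed here and gives no check of the labels.

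The values are RMA intensities, a background-corrected and normalised brightness, on a linear scale. The difference given for a probe set is the log2 intensity in the CA9 line minus that in the mock line, so a positive value means higher in the CA9 line. Since each line has a single array, there are no replicates, no error between samples and no test, and every difference below describes these 2 arrays. Differences are described by size, and a probe set or gene is said to be called at a difference of 2-fold or more. As a measure of technical disagreement, the differences of probe sets of the same gene scattered around their gene's mean with an SD of 0.30 on the log2 scale over 5826 genes. A floor was set at an intensity of 40.8, the median over both arrays with control probe sets left out, and a probe set was above it if the mean of its log2 intensities on both arrays was. Of the members, 53 probe sets and the probe set with the highest mean intensity of 27 genes lay above the floor. The remaining 7 genes had no probe set above it.

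Across 13306 genes above the floor, which are not independent of each other, log2 intensities on the arrays correlated with a Pearson r of 0.974, and differences had an SD of 0.37. Median intensities were 41.8 (CA9 array) and 40.1 (mock array). Spiked-in control transcripts that report on hybridisation were higher on the CA9 array by a median of 0.41. For 18S ribosomal RNA 3 of 3 probe sets were lower there, with log2 differences between -2.15 and -0.92, and those for 28S ran from -2.75 to 0.29. Poly-A spike-ins, added to the RNA before labelling, had a median of -0.20. Brighter genes tended to lower differences, with a Spearman correlation of -0.23 between mean intensity and difference over 13288 genes. The labels call the cells epithelial. Of 8 epithelial markers listed 5 lay above the floor, such as KRT8 with 101 in the CA9 line against 68.3 in the mock line. EPCAM and CDH1, which define many epithelial cells, lay below the floor on both arrays, at 16.4 and 28.6 in the CA9 line and at 14.0 and 19.4 in the mock line.

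As a group the adhesion genes lay around 0, with members on both sides. Of the 27 genes above the floor 13 were higher and 14 lower in the CA9 line, with a median difference of -0.07, against a median of -0.04 and 45.2% above 0 among all 13306 genes. The median over the 53 probe sets was 0.05, on the other side of 0. Of the 53 probe sets 2 were at least 2-fold higher, 1 for TLN1 and 1 for PXN, where 0.711% of all single-gene probe sets above the floor were that much higher. None was at least 2-fold lower, where 0.707% of all were. Counted by gene, with the probe set of highest mean intensity standing for each, TLN1 was the 1 gene called higher (0.631% of all genes) and none was called lower (0.661% of all genes). At 1.5-fold or more the genes were TLN1, higher, and ITGAV, lower, where 4.79% of all genes were that much higher and 4.63% that much lower. These shares of 27 genes rest on 1 gene in each direction.

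**Figure D1:**
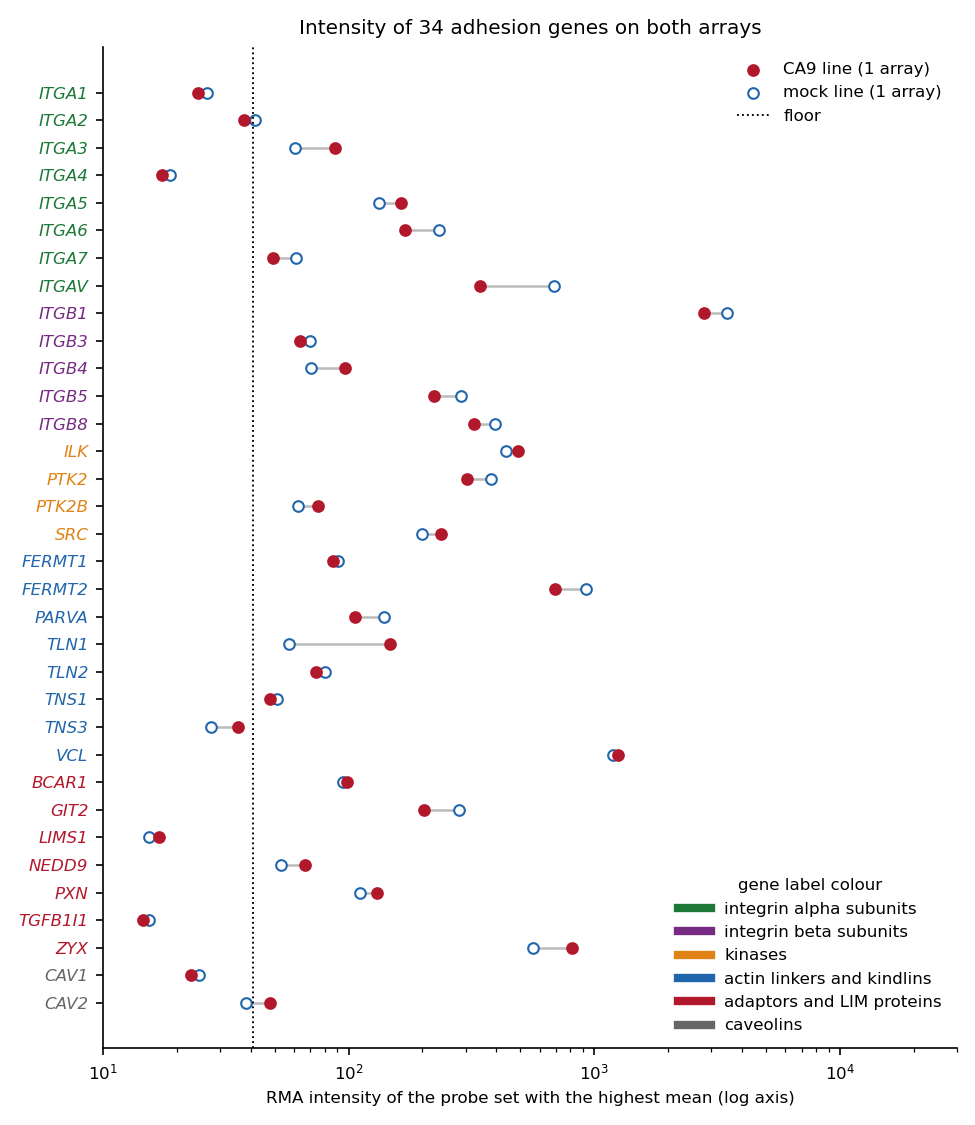
RMA intensity (log axis) of the probe set with the highest mean for each of 34 adhesion genes, with the CA9 line as filled and the mock line as open circles, 1 array each, and the floor of 40.8 as a dotted line. TLN1 has the widest gap with the CA9 line higher, at 147 against 57.2, and ITGAV the widest with the CA9 line lower, at 345 against 687.

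The members farthest from 0 in each direction are shown with the 200 bases before their transcription start, as are ZYX and ITGB1, bright members on either side of 0 whose probe sets above the floor shared a sign. The sequences are the first window that RefSeq lists for the gene on assembly GRCh38.p14, 5′ to 3′ on the gene's own strand. TLN1 lies at chr9:35732196-35732395 on the minus strand, ZYX at chr7:143381145-143381344 on the plus strand, ITGAV at chr2:186589856-186590055 on the plus strand and ITGB1 at chr10:32958231-32958430 on the minus strand. Capitals mark matches on either strand to GGGCGG, the GC box bound by SP1, and to GGAATG, the core recognised by TEAD factors.
TLN1: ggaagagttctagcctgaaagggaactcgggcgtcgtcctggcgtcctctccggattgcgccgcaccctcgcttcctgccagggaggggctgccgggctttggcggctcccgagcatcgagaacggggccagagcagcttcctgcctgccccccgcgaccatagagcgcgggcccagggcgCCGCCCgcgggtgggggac
ZYX: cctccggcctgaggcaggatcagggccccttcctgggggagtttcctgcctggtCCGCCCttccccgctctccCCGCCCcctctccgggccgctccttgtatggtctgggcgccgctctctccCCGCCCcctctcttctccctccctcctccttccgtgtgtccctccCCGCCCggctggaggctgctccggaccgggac
ITGAV: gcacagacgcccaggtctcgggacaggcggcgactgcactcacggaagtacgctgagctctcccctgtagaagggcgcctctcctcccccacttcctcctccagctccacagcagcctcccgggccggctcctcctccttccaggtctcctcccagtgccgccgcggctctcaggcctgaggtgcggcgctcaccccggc
ITGB1: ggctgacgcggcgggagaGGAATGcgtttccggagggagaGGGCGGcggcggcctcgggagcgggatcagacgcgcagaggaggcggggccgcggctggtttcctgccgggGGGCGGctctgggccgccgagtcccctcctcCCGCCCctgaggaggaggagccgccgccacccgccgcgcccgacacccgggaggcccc

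All 4 windows are rich in G and C, at 72.0% for TLN1, 73.0% for ZYX, 70.5% for ITGAV and 79.0% for ITGB1, beside a median of 58.5% over 27305 genes. The GC box occurs once in TLN1, 4 times in ZYX, 3 times in ITGB1 and not in ITGAV. It was present in 16 of 26 members with a listed window (61.5%) and in 39.9% of all windows of that length. No limit on gene type or expression was set for all windows. The 26 windows had a median of 73.25% G and C, and the part of this in the share was not tested. They include CRK and members below the floor, such as LIMS1 and CAV1. The TEAD core was present in 3 of the 26 members, ITGB1, VCL and ITGA5, and in 9.47% of all windows. ACGTG, the core of the hypoxia response element, was present in 2 members, ITGA6 and CAV1, and in 15.8% of all windows. The CArG box, bound by SRF, was present in none of the 26 members and in 0.967% of all windows. These matches describe letters in a window and not binding.

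Among the alpha subunits, which set most of the ligand preference, ITGAV was farthest from 0. It encodes the alpha-v subunit that pairs with several beta subunits to bind vitronectin, fibronectin and latent TGF-beta, and its single probe set read 345 in the CA9 line against 687 in the mock line. It was 1.995-fold lower in the CA9 line, a log2 difference of -0.997, just short of the 2-fold limit. Of all genes above the floor 0.676% were as low or lower. With no second probe set paired with ITGAV alone, above or below the floor, no other value used here bears on this difference. In bulk RNA of a line, less RNA in every cell and fewer cells with the transcript cannot be told apart.

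ITGA6, the laminin-binding alpha-6 subunit, was also lower in the CA9 line, and both its probe sets showed this. They had 169 and 151 in the CA9 line against 233 and 198 in the mock line, with differences of -0.46 and -0.38. ITGA3, another laminin-binding subunit, had the opposite sign, at 87.8 in the CA9 line against 60.5 in the mock line, a difference of 0.54. ITGA5, the fibronectin-binding alpha-5 subunit, had 163 in the CA9 line and 133 in the mock line, a difference of 0.30. ITGA3 and ITGA5 had 1 probe set each, and the differences of ITGA5 and of the second ITGA6 probe set are of about the size of the disagreement between probe sets of a gene. ITGA7, a laminin-binding subunit best known from muscle, had 1 probe set at -0.31 and another at 0.48, so its direction is not settled. They read 49.3 and 58.0 in the CA9 line against 61.0 and 41.6 in the mock line. ITGA1 and ITGA2, collagen-binding subunits, and ITGA4, which binds fibronectin and VCAM1, had no probe set above the floor. Their probe sets ranged in log2 difference from -0.14 to 0.36, with the highest value for ITGA2 at 43.7 in the CA9 line against 33.9 in the mock line.

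The beta subunits lay between -0.37 and 0.47 in the probe set with the highest mean, and none was called. ITGB1, the beta-1 subunit shared by the largest group of integrins, had 2793 in the CA9 line and 3475 in the mock line, a difference of -0.31. Its other probe sets above the floor had 949 and 847 in the CA9 line against 1069 and 980 in the mock line. All 3 were lower in the CA9 line, by 1.13-fold to 1.24-fold. ITGB8, which pairs with alpha-v alone, had 324 in the CA9 line and 395 in the mock line, a difference of -0.29. ITGB3, the beta-3 subunit of the vitronectin receptor, had 63.4 in the CA9 line and 69.4 in the mock line, and its 6 other probe sets lay below the floor. Those ran in log2 difference from -0.18 to 0.22, and the average of all 7 was 0.02, so its direction is not settled.

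ITGB4, which pairs with alpha-6 alone and anchors hemidesmosomes to keratin, differed in sign from its partner ITGA6. Its 3 probe sets above the floor had 97.1, 74.1 and 67.0 in the CA9 line against 70.2, 53.8 and 46.2 in the mock line. All 3 were higher in the CA9 line, with differences of 0.46, 0.47 and 0.54, and both its dimmer probe sets were above 0 too. ITGB5, which pairs with alpha-v to bind vitronectin, gave no single answer. One probe set had 223 in the CA9 line and 287 in the mock line, a difference of -0.37, and another had 284 in the CA9 line and 219 in the mock line, a difference of 0.37. The second is of a type named _x_at, whose oligonucleotides can also match other transcripts. In the probe set of highest mean, 2 of 5 alpha and 1 of 5 beta subunits above the floor were higher in the CA9 line. Of all genes above the floor 45.2% were higher. The lower ones include ITGA7, ITGB5 and ITGB3, whose averages over all probe sets were above 0, at 0.09, 0.09 and 0.02.

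**Figure D2:**
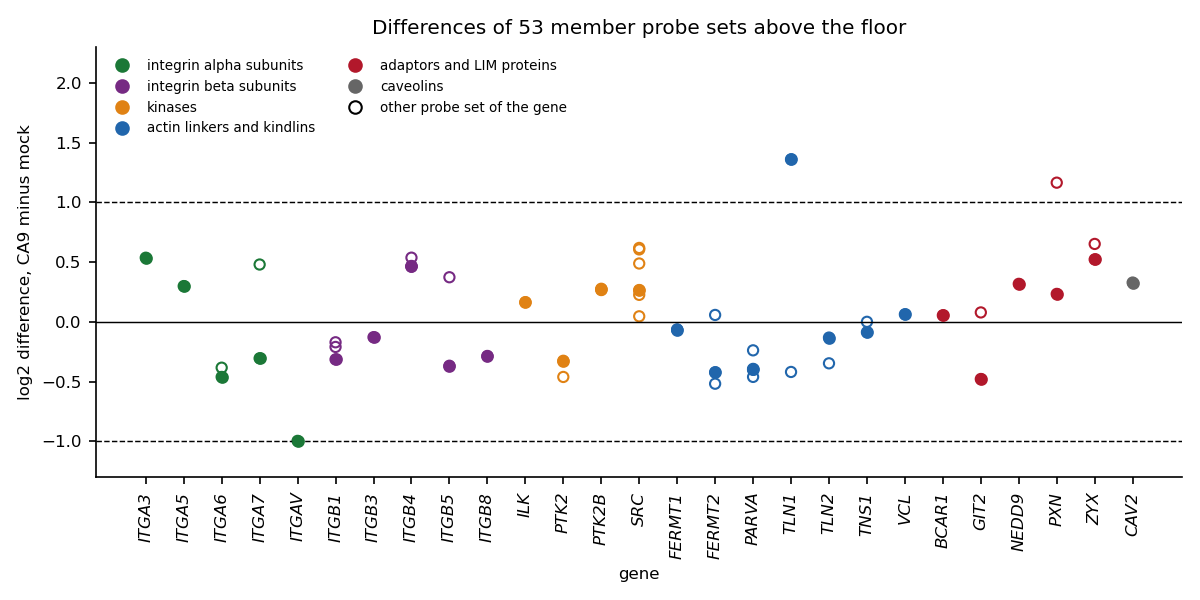
Log2 difference, CA9 minus mock, of each member probe set above the floor, by gene and coloured by role, with the probe set of highest mean filled and the others open, and dashed lines at 2-fold. TLN1 has 1 probe set at 1.36 and 1 at -0.42, PXN 1 at 1.16 and 1 at 0.23, while SRC, ITGB4, ZYX, ITGB1, ITGA6, PTK2 and PARVA each keep to 1 side of 0.

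The kinases also divided. PTK2 encodes FAK, the tyrosine kinase that integrin clustering activates, and its probe sets above the floor had 303 and 152 in the CA9 line against 380 and 210 in the mock line. Both were lower in the CA9 line, with differences of -0.33 and -0.46. PTK2B, the FAK relative PYK2, had 75.1 and 50.3 in the CA9 line against 62.0 and 41.8 in the mock line, with differences of 0.28 and 0.27. SRC, the kinase that docks on phosphorylated FAK, was higher in the CA9 line in all 6 probe sets above the floor. They read 239, 89.0, 82.5, 72.9, 54.1 and 47.1 in the CA9 line against 199, 58.0, 54.2, 70.6, 38.6 and 40.3 in the mock line, with differences from 0.05 to 0.62. For the 2 dimmest the mock value is itself under the floor, so they passed it through the CA9 array. Its 2 largest differences were 1.54-fold and 1.52-fold, whereas the probe set with the highest mean had a difference of 0.27. The largest came from the _x_at type, and the next from a type named _s_at, which can detect more than 1 transcript. ILK, the pseudokinase that forms a complex with PINCH and parvin, had 491 in the CA9 line and 438 in the mock line, a difference of 0.16 in a single probe set.

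TLN1 encodes talin-1, which binds integrin beta tails, brings them into the active state and links them to actin. Its brightest probe set read 147 in the CA9 line against 57.2 in the mock line, a difference of 1.36 or 2.57-fold, and 0.128% of all genes above the floor were as high or higher. The second probe set above the floor had 51.1 in the CA9 line and 68.4 in the mock line, a difference of -0.42. The third lay below the floor and had 37.2 in the CA9 line and 43.6 in the mock line. The call thus rests on 1 of 3 probe sets, of a type named _s_at that can detect more than 1 transcript, and the others had the opposite sign. TLN2, the second talin gene, had 73.4 and 65.3 in the CA9 line against 80.5 and 83.1 in the mock line, both slightly lower.

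The kindlins act beside talin on the beta tail. FERMT2, kindlin-2, had 692 and 215 in the CA9 line against 928 and 308 in the mock line in its 2 brighter probe sets, with differences of -0.42 and -0.52. Its remaining probe set, of the _x_at type, had 157 in the CA9 line and 151 in the mock line. FERMT1, kindlin-1 of epithelia, was close to equal, at 86.3 and 47.9 in the CA9 line against 90.4 and 50.1 in the mock line. PARVA, alpha-parvin, which joins ILK to actin, was lower in the CA9 line in all 4 probe sets above the floor. They had 106, 93.9, 44.7 and 36.9 in the CA9 line against 140, 124, 52.8 and 50.8 in the mock line, with differences from -0.46 to -0.24. Among its 3 dimmer probe sets 1 read 18.8 in the CA9 line against 28.8 in the mock line, a difference of -0.61, and another was above 0. VCL, vinculin, which reinforces the talin link under tension, had a difference of 0.06, at 1252 in the CA9 line and 1199 in the mock line. TNS1, the actin-binding tensin-1, had 48.0 in the CA9 line and 50.9 in the mock line, with a second probe set at exactly 44.0 on both arrays. TNS3 lay below the floor.

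**Figure D3:**
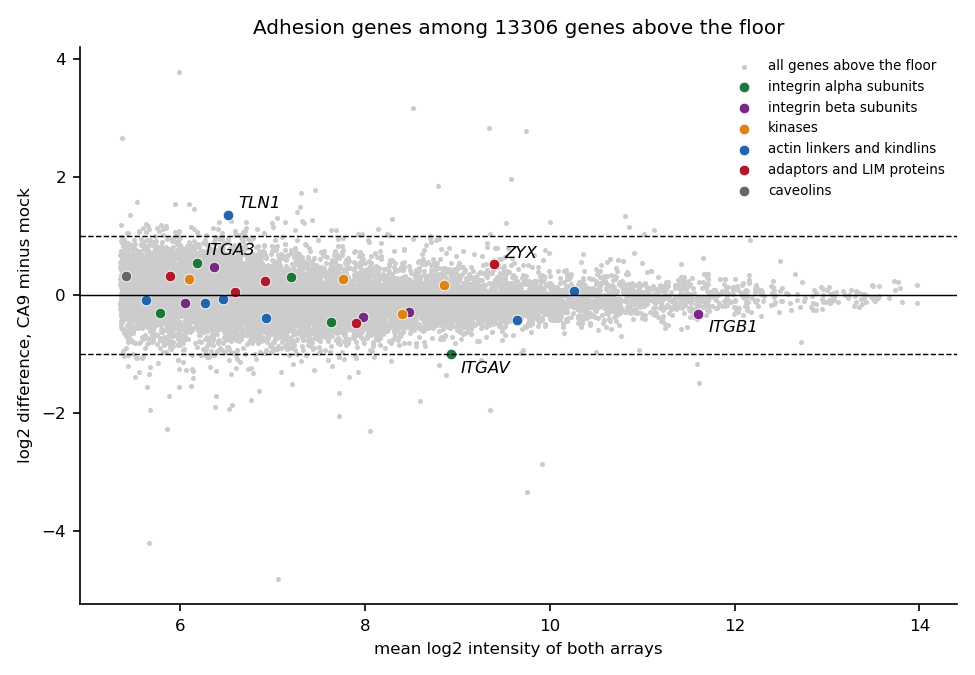
Log2 difference, CA9 minus mock, against mean log2 intensity for all 13306 genes above the floor (grey) and the 27 member genes (coloured by role), with dashed lines at 2-fold. TLN1 lies above the upper line at 1.36 and ITGAV next to the lower one at -0.997, while the other members lie within the grey cloud between -0.48 and 0.54.

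Of 5 scaffold and LIM protein genes above the floor 4 were higher in the CA9 line, or 3 with array medians set equal, where BCAR1 was at -0.01. Without probe sets named _x_at, _s_at or _a_at NEDD9 was at -0.13 and ZYX had no value. ZYX encodes zyxin, a LIM protein that moves to strained actin fibres, and its probe sets had 810 and 779 in the CA9 line against 564 and 496 in the mock line. Both were higher, with differences of 0.52 and 0.65, and 6.38% of all genes were as high or higher than the first. PXN, paxillin, the scaffold that binds FAK and vinculin, had 131 in the CA9 line and 111 in the mock line in the probe set of highest mean, a difference of 0.23. Its other probe set, of the _s_at type, had 112 in the CA9 line and 50.1 in the mock line, a difference of 1.16 or 2.24-fold. These agree in sign but differ by more than the usual disagreement between probe sets of a gene, and the average of both was 0.70.

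NEDD9, a p130Cas-family scaffold, had 66.4 in the CA9 line and 53.3 in the mock line, a difference of 0.32. BCAR1, p130Cas itself, had 98.4 in the CA9 line and 94.7 in the mock line, a difference of 0.05. Its second probe set, below the floor on both arrays, read 33.4 in the CA9 line against 18.9 in the mock line, a difference of 0.82, and the average of both was 0.44. GIT2, an ARF GTPase-activating protein that binds paxillin, went the other way in its brighter probe set, at 203 in the CA9 line against 283 in the mock line, a difference of -0.48. A dimmer probe set of GIT2 had 66.8 in the CA9 line and 63.3 in the mock line. TGFB1I1, the paxillin relative HIC-5, was below the floor, at 14.5 in the CA9 line and 15.4 in the mock line. LIMS1, the ILK partner PINCH-1, had 3 probe sets of its own, all below the floor. Another 2 probe sets match LIMS1 and near-identical copies, LIMS3 or LIMS4, and cannot be assigned to 1 gene. One of them was equal on both arrays at 215, and the other had 532 in the CA9 line and 657 in the mock line.

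Caveolins, the coat proteins of caveolae that associate with integrins, were dim. Both CAV1 probe sets lay below the floor, the brighter at 22.8 in the CA9 line and 24.6 in the mock line. CAV2 had 1 of 3 probe sets above it, at 47.8 in the CA9 line and 38.1 in the mock line, where the mock value is itself under the floor. Its other probe sets had differences of -0.19 and -0.11, and the average of all 3 was 0.01, so its direction is not settled.

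Several members could be read through more than 1 probe set. Of 17 members with at least 2 probe sets above the floor 11 had all of them on 1 side of 0, or 64.7%, against 51.4% of 5826 genes. The 11 were ITGB4, SRC, PTK2B, PXN and ZYX, higher in the CA9 line, and ITGA6, ITGB1, PTK2, TLN2, FERMT1 and PARVA, lower there. For SRC and PARVA the 11 include probe sets with 1 array under the floor. Such probe sets read the same RNA on the same arrays and so are not replicates. The SD between probe sets was 0.36 in the members and 0.30 over all genes.

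Genes around the members were described with 6 further lists of the adhesion pathway. Of 17 integrin ligands above the floor 2 were at least 2-fold lower and none at least 2-fold higher in the CA9 line, and the median was -0.02, where 0.661% of all genes were that much lower and 0.631% that much higher. THBS1, thrombospondin-1, which alpha-v integrins bind, had 119 in the CA9 line and 376 in the mock line, 3.17-fold lower, and its 3 probe sets above the floor lay between -2.02 and -1.66. COL4A1, a collagen of basement membranes, had 102 in the CA9 line and 206 in the mock line, 2.03-fold lower, while its other probe set above the floor lay at -0.02. Of 28 other plaque adaptors and actin linkers 1 was called, PDLIM7, a PDZ and LIM protein of actin fibres, at 248 in the CA9 line and 106 in the mock line. It was 2.33-fold higher, but its 6 probe sets above the floor ran from -0.11 to 1.22. SORBS3 had 0.28 in its brightest probe set but 1.43, beyond 2-fold, in its other one above the floor. The median of that list was -0.01. PARVB, the relative of PARVA, had the next highest difference of the list at 0.72, with probe sets from -0.02 to 0.90, and so the parvins differed in sign.

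None of the 38 kinases, phosphatases and GTPase regulators above the floor was called, and 26 of them were below 0, with a median of -0.11, where 7140 of all 13306 genes were below 0. APBB1IP, the RAP1 effector that recruits talin, had -0.64 in its brightest probe set and up to 0.58 in another, and ARHGEF7, the GIT partner beta-PIX, had -0.57. SHC1 and RAP1A had 0.40 and -0.52 in their brightest probe sets, but each passed 2-fold in another, at 1.28 and 1.05. None of the 8 other integrin subunits above the floor was called, and their median was 0.32. ITGA8 was farthest from 0, at 147 in the CA9 line and 79.3 in the mock line, a difference of 0.89, and ITGB7 followed at 0.65. None of 17 integrin partners and trafficking genes was called (median 0.02), with LGALS1 at 0.48 and SDC1 at -0.45 farthest from 0. None of 4 caveolar genes was called (median 0.16), with CAVIN1 at 0.26 and EHD2 at 0.20 in the brightest probe set. CAVIN1 had 3 probe sets above the floor, which ran from 0.26 to 1.10, beyond 2-fold. For all lists the background is that of all genes, a median of -0.04.

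**Figure D4:**
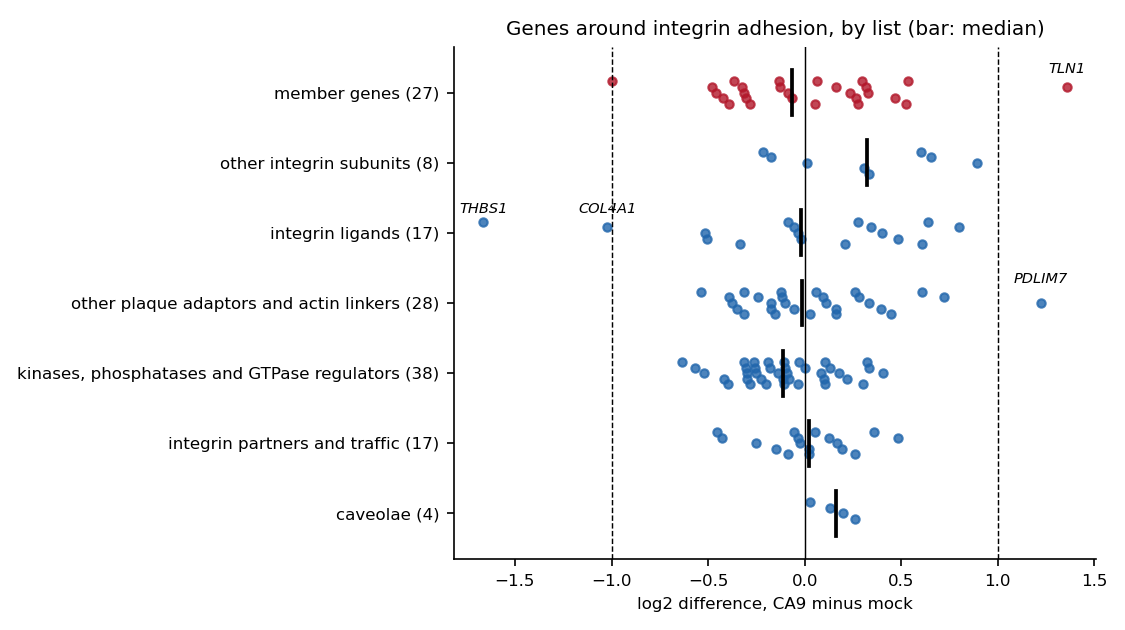
Log2 difference, CA9 minus mock, of the genes above the floor in the member list (red) and 6 further adhesion lists (blue), with a bar at each median, the number of genes in brackets and dashed lines at 2-fold. THBS1 and COL4A1 lie beyond 2-fold on the lower side and TLN1 and PDLIM7 on the higher side, and the medians run from -0.11 to 0.32.

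Members on either side of 0 can also be described by where they lie in the genome. The 13 higher members had a median of 20 protein-coding genes within 500 kb of their midpoint, and the 14 lower members 5.5, beside 15 and 10 among higher and lower genes of the whole array. The Spearman correlation between that number and the difference was 0.55 over 27 members and 0.22 over 13288 genes, where the points share the same pair of arrays. Among the members that went against it were ITGA7, with 40 such neighbours and a difference of -0.31, and CAV2, with 5 and a difference of 0.33 in the probe set above the floor. NEDD9, PTK2B and SRC, with 8, 9 and 10 neighbours, were also higher, at 0.32, 0.28 and 0.27. The lower members were also brighter, with a median of the mean log2 intensity of 6.59 among higher members and 7.77 among lower ones, beside 6.63 and 7.58 over all genes. Higher members spanned a median of 36.4 kb of genome and lower members 88.4 kb, beside 19.4 and 31.9 kb over all genes. The Spearman correlation of the difference with gene span was -0.50 over the members and -0.19 over all genes. With mean log2 intensity it was -0.38 and -0.23. The part of brightness, gene span or neighbourhood in the differences was not tested.

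**Figure D5:**
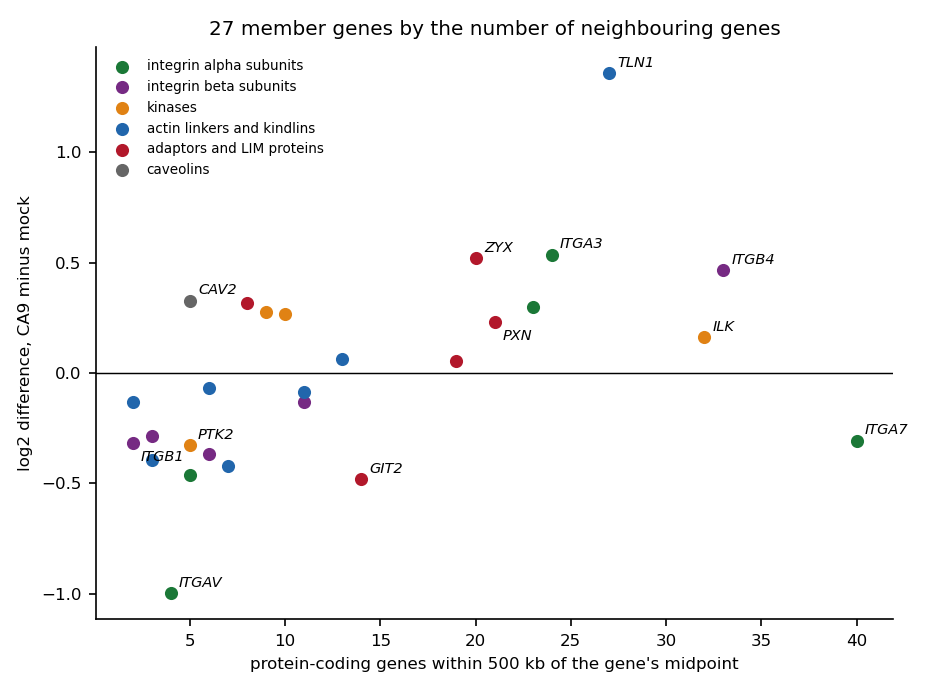
Log2 difference, CA9 minus mock, of 27 member genes against the number of protein-coding genes within 500 kb of the gene's midpoint, coloured by role. ITGAV, ITGB1 and PTK2 have 4, 2 and 5 neighbours and lie below 0, whereas TLN1, ITGB4 and ITGA3 have 27, 33 and 24 and lie above it. Against this, CAV2, NEDD9 and PTK2B have 5, 8 and 9 and lie above 0, and ITGA7 has 40 and lies below it.

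Markers of other cell types were read in the same RNA. Of 8 fibroblast and mesenchymal markers above the floor, of 10 listed, 1 was called, VIM, at 2867 in the CA9 line and 1131 in the mock line. The summed intensity of all 10 was 6061 in the CA9 line and 4055 in the mock line, and VIM alone makes up most of that gap. Of the 8 above the floor 5 were higher in the CA9 line and 2 lower. Of 6 blood markers above the floor none was called, and the summed intensity of the 9 measured of 10 listed was 452 in the CA9 line and 443 in the mock line. Of the 6 above the floor 3 were higher and 3 lower in the CA9 line. PTPRC, which marks white blood cells, read 30.1 in the CA9 line, itself under the floor, against 58.1 in the mock line. CD14 had the opposite sign, at 57.1 in the CA9 line against 36.9 in the mock line, the latter under the floor. The blood markers include ITGB2, ITGAM and other integrin subunits that the list of other subunits also holds. Of 5 neural markers above the floor, of 6 listed, MAP2 was called, at 1573 in the CA9 line and 666 in the mock line. All 6 neural markers summed to 1902 in the CA9 line and 954 in the mock line, and MAP2 alone makes up most of that gap. Of the 5 above the floor 3 were higher in the CA9 line. The other 2, RBFOX3 and SYP, were lower, at -0.29 and -0.21, though another RBFOX3 probe set was at 0.53. Endothelial markers summed to 250.4 in the CA9 line and 229 in the mock line, and muscle markers to 309.5 in the CA9 line and 296 in the mock line, with none called. Epithelial markers, 7 measured of 8 listed, summed to 375 in the CA9 line and 287 in the mock line, with none called. The sum includes EPCAM and CDH1, which lay below the floor. Of the 5 above the floor 4 were higher in the CA9 line, with a median of 0.52, beside -0.04 over all genes. KRT5 was lower, at 39.0 in the CA9 line, itself under the floor, against 48.0 in the mock line. For KRT19 the mock value, 39.4, was under the floor. The part of these markers in the members' differences was not tested.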

How the data were processed

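The authors deposited 1 table of intensities, a value per probe set and array, which the submitters' processing notes attribute to RMA. The version and the probe definitions are not given in the sources used here. The linear scale was read from the values, which run from 6.79 to 17091 on the CA9 array, and log2 was taken without a pseudocount. The members and gene lists were chosen with earlier results of these data known.

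Probe sets were named by GEO's platform annotation where it gives 1 gene. This held for 41091 of 54675, of which 41037 were matched by Entrez identifier to RefSeq (GRCh38.p14), 1801 had several genes and 11721 other than controls were not listed. The probe set of highest mean log2 intensity stood for a gene. Member genes were all accounted for, with both arrays for each probe set above the floor. Of each pathway list, called genes were named, filled up to 2 with those farthest from 0. Genes with only a dimmer probe set above the floor at least 2-fold apart were named too. Any marker above the floor could be named. The floor used the mean of both arrays and so treated the lines alike, but a probe set could still pass it through 1 array.

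There was 1 array per line, so no test was made, and the number of arrays limits the precision. Promoter windows of overlapping genes on opposite strands matched as reverse complements in 2750 of 2750 cases. The alternatives changed the scaling, the floor, the pseudocount, the probe set types and the averaging. Scripts, tested on simulated data, ran under Python 3.11.15 with pandas 2.3.3, numpy 2.4.6, matplotlib 3.10.9 and statsmodels 0.14.6.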

Additional observations from a re-analysis of the deposited data

Results flagged for a closer look

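The hybridisation spike-ins, control transcripts used in no comparison, had a median log2 difference of 0.41, CA9 array minus mock array, with 17 of 18 probe sets above 0. Of 24 probe sets for poly-A spike-ins 3 were above 0, and their median was -0.20. This is a signal in data outside the comparison. The part of this in the members' differences was not tested.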

How the results depend on the processing

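The results were recomputed under 10 alternatives. Of the 27 member genes 14 kept their sign in all 10, and FERMT2, ITGA3 and ZYX in the 9 that gave them a value, 8 of the 17 higher and 9 lower in the CA9 line. The floor settings leave a gene's own value as it is and could not turn it. A pseudocount could not turn the sign of a probe set either. For a gene with 1 probe set, such as ITGAV, averaging or leaving out probe set types could not turn the value. For such genes only the changes of scaling could. ITGAV ran from -1.06 to -0.89, and the median of the member genes from -0.31 to 0.07, with both averages over probe sets on the positive side. Of the 2 probe sets at least 2-fold higher, 0 passed a floor raised to percentile 75, 0 remained without probe sets named _x_at, _s_at or _a_at, and 1 with a pseudocount of 16. The 1 gene called higher, TLN1, was not called (0 genes) with that higher floor, without those probe sets, with all probe sets of a gene averaged (0.24) or with those above the floor averaged (0.47). Without those probe sets TLN1 reversed to -0.42, on fewer probe sets by construction. With array medians set equal, 1 probe set and 1 gene (ITGAV) were at least 2-fold lower in place of 0. The median of the member probe sets was -0.30 at the higher floor in place of 0.05, where fewer probe sets remain, and it was also below 0 with equal medians (-0.02), with no floor (-0.05) and without the probe set types above (-0.08). NEDD9 had -0.13, CAV2 -0.19, ITGB1 0.22 and ITGB3 0.11 without those types, each from a probe set below the floor. With equal medians the median of all genes was -0.10 in place of -0.04, and 36.6% of all called genes were higher in place of 48.8%. Chosen after seeing the data, a 1.5-fold limit gave 1 lower gene, and adding the shared LIMS1 probe sets left 2 higher and 0 lower. Over all genes 84 higher and 88 lower were called, but 40 and 42 with all probe sets averaged, 41 and 50 with the pseudocount, and 35 and 38 at the higher floor. Signal near background limits the 7 members below the floor, for which no direction is given. No paired analysis was possible because there is 1 array per line.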
